A study of Mus musculus with 19 samples.

Results

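The 33 genes described here encode the enzymes of glycolysis, the transporters that bring in glucose and carry lactate, and the enzymes that steer pyruvate and glycogen. They were chosen by symbol: 32 named genes plus pyruvate kinase, which the expression table lists as Pkm2. Each symbol matched 1 row among the 22958 genes of the table, and 32 of the 33 had enough reads to be among the 13588 genes tested. Fbp2, a muscle fructose bisphosphatase, was the member left out, with 5, 3 and 3 reads in glia replicates 1 to 3 and 1, 7, 7 and 3 reads in GPC replicates 1 to 4.

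Glycolysis splits glucose into pyruvate in the cytosol. Pyruvate either enters mitochondria through the pyruvate dehydrogenase complex or is turned into lactate by lactate dehydrogenase, and lactate leaves or enters cells through monocarboxylate transporters. Many steps have several isozymes encoded by separate genes, and cells differ in which they use. In brain, astrocytes are known for glycogen storage and for lactate release, and proliferating progenitors for high glycolytic flux. Several genes of the pathway are also known targets of the hypoxia-inducible factors (HIF), which act when oxygen is low.

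The libraries came from mouse cells derived from embryonic stem cells (ESC) in culture. The 3 glia libraries are labelled ESC-derived glial cells and the 4 GPC libraries ESC-derived glial progenitor cells. The labels give 1 protocol text for both: neural differentiation in N2B27 medium with 0.1 µM all-trans retinoic acid, magnetic sorting for the surface antigen A2B5 at day 8, and growth on fibronectin with EGF and FGF2 at 10 ng/ml. Neither the step from these cells to glia nor whether glia were kept in EGF and FGF2 is stated there. No genotype, clone or separate culture is named for any library, so the p-values here cover only the spread among these libraries, possibly technical. ChIP-seq peaks in GPC, 1 list for each factor, were also used for the transcription factors NFIA, SOX3 and SOX9.

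Counted reads totalled 17166532, 6897294 and 17369367 in glia replicates 1 to 3, and 12836998, 13037426, 22439837 and 12927131 in GPC replicates 1 to 4. Levels below are the authors' RPKM, reads scaled by gene model length and library size, always in the order of the replicate numbers. Differences are log2 changes of glia over GPC, with their standard error (SE) and the p-value of edgeR's quasi-likelihood test on the counts, adjusted by Benjamini-Hochberg over all genes tested and called at 0.05, two-sided. Marker lists of the labelled cells were measured as a check: maturing oligodendrocyte markers summed to 2080 to 2910 RPKM in glia and 195 to 240 RPKM in GPC, astrocyte markers to 9060 to 11300 RPKM in glia and 1620 to 1640 RPKM in GPC, and cell cycle genes to 362 to 368 RPKM in glia and 1500 to 1740 RPKM in GPC. Of the 18 astrocyte markers 13 rose and 4 fell, where 35.2% of all genes tested rose and 35.2% fell. Gfap and Apoe, at means of 3258 and 3364 RPKM in glia and 8.37 and 47.9 RPKM in GPC, carried most of the sum in glia, while Slc1a3, Aldh1l1, Glul and Fgfr3 fell. The 12 neural progenitor markers were mixed: 4 rose (Sox2, Pax6, Prom1 and Msi1), 5 fell and 3 were not called, with a median log2 change of -0.078. They summed to 3700 to 3730 RPKM in glia and 7620 to 8080 RPKM in GPC. Fabp7 had means of 1659 RPKM in glia and 5529 RPKM in GPC and carried most of the GPC sum. Markers of other cells differed between the groups as well. All 10 mesenchyme markers were higher in glia (683 to 834 RPKM summed in glia, 163 to 181 RPKM in GPC). The 15 neuronal markers summed to 246 to 263 RPKM in glia and 186 to 203 RPKM in GPC, with Slc17a6 at 0 throughout. Of the 13 tested, 7 rose, 5 were not called and 1 fell. The 1 that fell was Mtap2, now called Map2, at means of 127 RPKM in glia and 150 RPKM in GPC. The 13 microglia and endothelium markers summed to 9.67 to 11.2 RPKM in glia and 4.01 to 5.48 RPKM in GPC, with Cx3cr1 and Cldn5 at 0 throughout. Only 3 of these were tested: 2 rose, Tmem119 (means of 8.07 RPKM in glia and 1.74 RPKM in GPC) and Kdr (1.89 and 0.941 RPKM), and Emcn fell. Tmem119 carried most of the sum in glia. The microglia markers Aif1, Csf1r, Itgam and Ptprc had at most a few reads in any library and were not tested, nor was P2ry12 (means of 0.123 RPKM in glia and 0.125 RPKM in GPC). The part of these cells in the results on the 33 genes was not tested, and in bulk RNA fewer cells of a type and less RNA per cell cannot be told apart. GPC replicate 3 stood apart from the other GPC libraries in many of the 33 genes, so changes are also given without it.

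Members of the pathway moved in both directions. Of the 32 genes tested, 12 rose in glia (37.5%, where 35.2% of all genes tested rose), 14 fell (43.8%, where 35.2% of all genes fell) and 6 were not called. Among those that fell, Gapdh, Pgk1, Pgam1 and Eno1 rest on few bases of the gene and have uncertain levels, as given below. The counts and medians here include them. Among changes of at least 2-fold, 7 members rose (21.9%, against 16.5% of all genes) and 9 fell (28.1%, against 9.24% of all genes). Without GPC replicate 3, 7 rose at least 2-fold (21.9%, against 17.2% of all genes) and 6 fell (18.8%, against 9.62% of all genes): Tpi1, Pgk1 and Gys1 no longer fell 2-fold, Pygm no longer rose 2-fold and Aldoc did. The median log2 change of the members was -0.64, beside 0.0013 for all genes tested, and -0.19 without GPC replicate 3, beside 0.0065. Without that library 12 members rose (38.1% of all genes then rose) and 15 fell (37.7% of all genes then fell), and all 26 calls made with 7 libraries were made again in the same direction. The libraries of the 2 groups did not overlap in 25 members, of which 10 were higher in all glia (36.9% of all genes were) and 15 lower in all glia (32.1% of all genes were). With all 7 libraries those that rose at least 2-fold were Pfkfb2, Eno2, Slc16a1, Pdk2, Pdk4, Pygb and Pygm, and those that fell at least 2-fold were Hk2, Gpi1, Tpi1, Pgk1, Pgam1, Eno1, Ldha, Slc16a3 and Gys1.

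**Figure D1:**
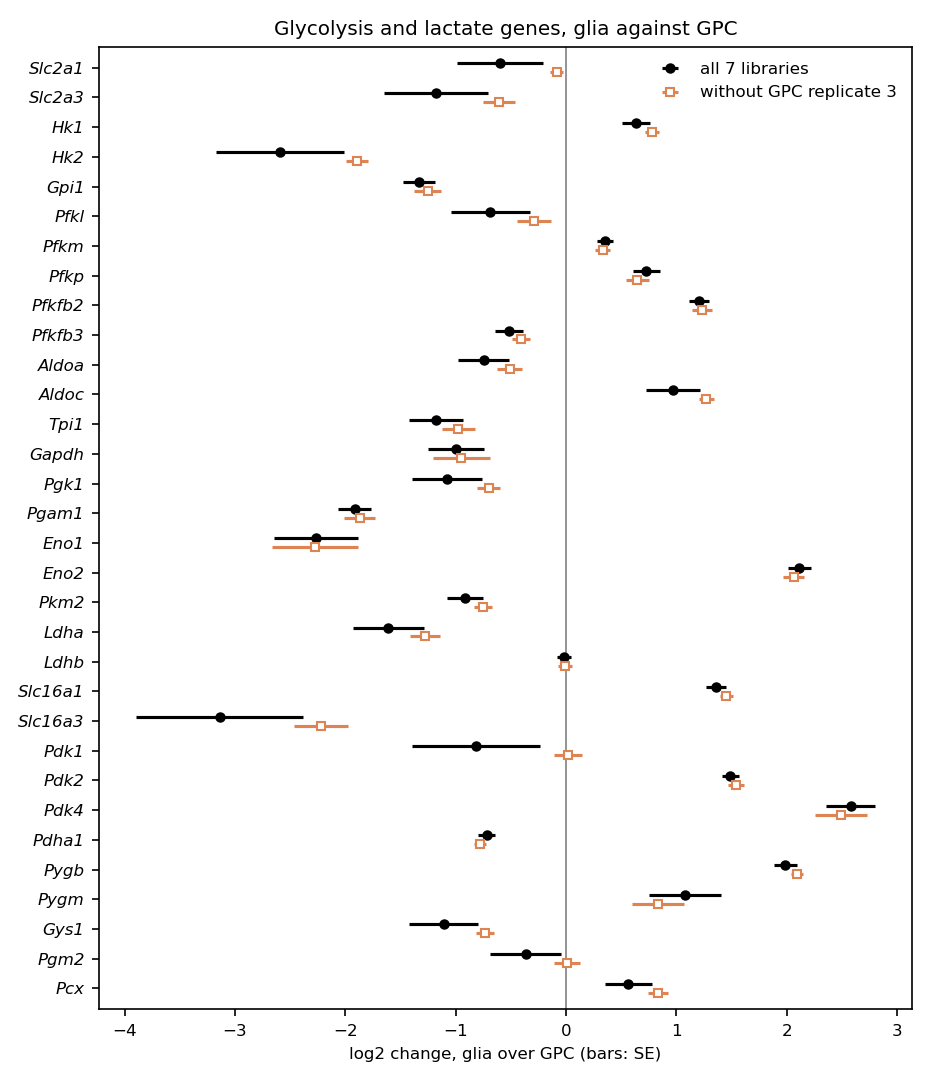
Log2 change of glia over GPC (horizontal axis) for the 32 tested genes in pathway order, with all 7 libraries (filled circles) and without GPC replicate 3 (open squares); bars are SE. Pdk4 had the largest rise of the 32 at 2.58 and Slc16a3 the largest fall at -3.14, and the Slc2a1, Pdk1 and Pgm2 changes lay near 0 once GPC replicate 3 was left out.

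The hexokinase genes, which encode the first step after glucose uptake, moved in opposite directions, and neither glucose transporter gene was called. Hk2, a hexokinase known to be raised in many dividing cells, was lower in every glia library, while Hk1, the hexokinase of most brain cells, was higher in every glia library. Hk2 gave 1.85, 2.01 and 1.58 RPKM in glia, against 6.12, 6.73, 22.2 and 6.67 RPKM in GPC, a log2 change of -2.59 ± 0.58 (edgeR adjusted p = 0.00514). Without GPC replicate 3 the Hk2 change was -1.89 ± 0.10 (adjusted p = 4.24e-09). Hk1 gave 72.2, 65.1 and 72.5 RPKM in glia, against 39.8, 38.97, 56.2 and 42.2 RPKM in GPC, a log2 change of 0.63 ± 0.13 (edgeR adjusted p = 0.00156). Without GPC replicate 3 the Hk1 change was 0.78 ± 0.064 (adjusted p = 2.68e-07). The groups did not overlap for either gene. Slc2a1 encodes GLUT1, the glucose transporter of astrocytes and the blood-brain barrier, and gave 38.4, 42.3 and 41.8 RPKM in glia, against 42.5, 40.8, 112 and 43.95 RPKM in GPC. Its groups overlapped, and its change of -0.60 ± 0.39 was not called (adjusted p = 0.207), nor was that of -0.086 ± 0.062 without GPC replicate 3 (adjusted p = 0.221). Slc2a3 encodes GLUT3, a transporter with high affinity for glucose that is best known from neurons, and gave 9.22, 10.9 and 9.23 RPKM in glia, against 10.997, 14.3, 41.7 and 18.004 RPKM in GPC. All glia were below all GPC, but the change of -1.18 ± 0.47 missed the threshold with 7 libraries (adjusted p = 0.0551). It passed at -0.61 ± 0.14 without GPC replicate 3 (adjusted p = 0.0019), and also without GPC replicate 1 at -1.40, adjusted p = 0.017 and without GPC replicate 2 at -1.33, adjusted p = 0.0386.

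Phosphofructokinase, which commits sugar to glycolysis, rose in its muscle and platelet types and was not called in its liver type. Gpi1, the isomerase just before it, fell: 141, 108 and 162 RPKM in glia, against 298, 319, 385 and 352 RPKM in GPC, a log2 change of -1.33 ± 0.14 (edgeR adjusted p = 2.65e-05). Every glia library lay below every GPC library. Of the phosphofructokinase genes, the muscle type Pfkm rose slightly, with 86.03, 83.4 and 93.8 RPKM in glia, against 69.8, 62.4, 64.2 and 70.7 RPKM in GPC, a log2 change of 0.35 ± 0.071 (edgeR adjusted p = 0.00132). The platelet type Pfkp was low in all libraries and also rose, with 3.38, 3.57 and 3.38 RPKM in glia, against 2.31, 2.12, 1.75 and 2.02 RPKM in GPC, a log2 change of 0.73 ± 0.12 (edgeR adjusted p = 0.000393). The liver type Pfkl gave 65.4, 42.2 and 74.7 RPKM in glia, against 70.1, 70.8, 163 and 80.5 RPKM in GPC, and its groups overlapped. Its change of -0.69 ± 0.36 was not called (adjusted p = 0.121), and neither was -0.29 ± 0.15 without GPC replicate 3 (adjusted p = 0.103).

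Pfkfb2 and Pfkfb3 encode bifunctional enzymes that make fructose 2,6-bisphosphate, the strongest activator of phosphofructokinase, and they moved apart. Pfkfb2 gave 12.7, 15.4 and 11.9 RPKM in glia, against 5.49, 5.16, 6.08 and 5.52 RPKM in GPC, a log2 change of 1.21 ± 0.091 (edgeR adjusted p = 1.11e-06). Pfkfb3, the isozyme known for its high kinase activity, gave 20.9, 25.7 and 19.9 RPKM in glia, against 28.004, 27.2, 38.1 and 31.03 RPKM in GPC, a log2 change of -0.51 ± 0.13 (edgeR adjusted p = 0.00479). Neither gene had overlapping groups, and without GPC replicate 3 the Pfkfb3 change was -0.41 ± 0.085 (adjusted p = 0.000832).

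Below the phosphofructokinase step 7 members fell, Aldoa, Tpi1, Gapdh, Pgk1, Pgam1, Eno1 and Pkm2, while the isozymes Aldoc and Eno2 rose. The values of Gapdh, Pgk1, Pgam1 and Eno1 rest on few bases of the gene, as given below. Aldoc, the brain aldolase that marks astrocytes, rose: 900.1, 794 and 945 RPKM in glia, against 358, 347, 684 and 367 RPKM in GPC, a log2 change of 0.97 ± 0.25 (edgeR adjusted p = 0.00807), or 1.27 ± 0.07 (adjusted p = 5.8e-09) without GPC replicate 3. Aldoa, the aldolase found in most cells, fell: 544, 400.2 and 616 RPKM in glia, against 693, 685, 1239 and 766 RPKM in GPC, a log2 change of -0.75 ± 0.23 (edgeR adjusted p = 0.019), or -0.51 ± 0.11 (adjusted p = 0.00116) without GPC replicate 3. The Aldoa call ended without glia replicate 2 (-0.61, adjusted p = 0.0796). Aldoc was thus higher than Aldoa in all 3 glia libraries and lower in all 4 GPC libraries on the per-length scale.

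Tpi1, triose phosphate isomerase, gave 219.7, 150.3 and 254 RPKM in glia, against 368, 394, 637 and 456 RPKM in GPC, a log2 change of -1.18 ± 0.24 (edgeR adjusted p = 0.00276). Pkm2, the pyruvate kinase row of the table, gave 459.7, 379 and 485 RPKM in glia, against 731, 706, 1067 and 752 RPKM in GPC, a log2 change of -0.91 ± 0.16 (edgeR adjusted p = 0.000789). Both were lower in every glia library than in any GPC library. Without GPC replicate 3 the changes were -0.98 ± 0.15 (adjusted p = 6.75e-05) for Tpi1 and -0.75 ± 0.083 (adjusted p = 4.16e-06) for Pkm2. The table has 1 row for this gene, so the splice forms of pyruvate kinase were not measured apart. Eno2, the enolase named for neurons, rose: 10.2, 10.9 and 11.4 RPKM in glia, against 2.56, 2.55, 2.20 and 2.49 RPKM in GPC, a log2 change of 2.12 ± 0.10 (edgeR adjusted p = 5.31e-08).

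For 4 members the values rest on few bases of the gene. The length implied by reads, RPKM and the reads used for normalization was 219 bases for Gapdh, 172 for Pgk1, 198 for Pgam1 and 43 for Eno1, where the median over the 11819 genes with at least 50 reads on average was 2820 bases and 0.575% of them were under 250. These genes have many near-identical copies in the mouse genome, and the sources used here do not say how reads matching several places were counted. Gapdh, glyceraldehyde phosphate dehydrogenase, had only 17, 4 and 20 reads in glia and 21, 24, 45 and 28 reads in GPC, while Pgk1 had 593, 185 and 630 reads in glia and 623, 724, 2496 and 713 reads in GPC, and Pgam1 had 165, 50 and 165 reads in glia and 342, 432, 784 and 495 reads in GPC. Levels of these 4 genes are uncertain and are not set beside other genes. All 4 fell by the test and had no overlap between groups. The log2 change was -0.9999 ± 0.25 (edgeR adjusted p = 0.00499) for Gapdh and -1.91 ± 0.15 (edgeR adjusted p = 1.39e-06) for the mutase gene Pgam1. Eno1, the enolase of most cells, changed by -2.26 ± 0.38 (edgeR adjusted p = 0.000371), on 14, 4 and 9 reads in glia and 20, 52, 67 and 50 reads in GPC. Pgk1, phosphoglycerate kinase, changed by -1.08 ± 0.32 (edgeR adjusted p = 0.0176), or by -0.70 ± 0.10 (adjusted p = 5.35e-05) without GPC replicate 3, and its call ended without glia replicate 2 (-0.97, adjusted p = 0.0702) and without glia replicate 3 (-1.16, adjusted p = 0.0507).

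At the lactate step, the subunit and the transporter associated with lactate production and export were lower in glia, while Ldhb was not called and Slc16a1 rose. Ldha encodes the muscle-type subunit of lactate dehydrogenase, which favours lactate formation, and gave 289, 184 and 304 RPKM in glia, against 574, 590.3, 1249 and 684 RPKM in GPC. Every glia library was below every GPC library, with a change of -1.61 ± 0.32 (edgeR adjusted p = 0.00268), or -1.28 ± 0.14 (adjusted p = 2.92e-06) without GPC replicate 3. Ldhb encodes the heart-type subunit, and gave 201, 192 and 212 RPKM in glia, against 196, 194, 199.9 and 209 RPKM in GPC. Its groups overlapped and its means were 202 ± 9.74 RPKM in glia (SD, n = 3) and 199.8 ± 6.43 RPKM in GPC (SD, n = 4), a change of -0.015 ± 0.063 that was not called (adjusted p = 0.842).

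Slc16a3 encodes MCT4, a monocarboxylate transporter with low affinity known for exporting lactate from glycolytic cells. Its levels were 4.41, 2.04 and 5.54 RPKM in glia, against 14.7, 18.7, 84.02 and 25.9 RPKM in GPC, a log2 change of -3.14 ± 0.76 (edgeR adjusted p = 0.00733). The GPC libraries spanned a wide range for this gene, but all lay above the glia, and the change was -2.22 ± 0.24 (adjusted p = 3.68e-06) without GPC replicate 3. Slc16a1 encodes MCT1, the transporter of oligodendrocytes, astrocytes and endothelium, and rose: 53.9, 53.7 and 50.5 RPKM in glia, against 18.6, 19.5, 23.5 and 18.6 RPKM in GPC, a log2 change of 1.36 ± 0.091 (edgeR adjusted p = 4.94e-07). The groups were far apart, with all glia above 50 RPKM and all GPC below 24 RPKM.

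**Figure D2:**
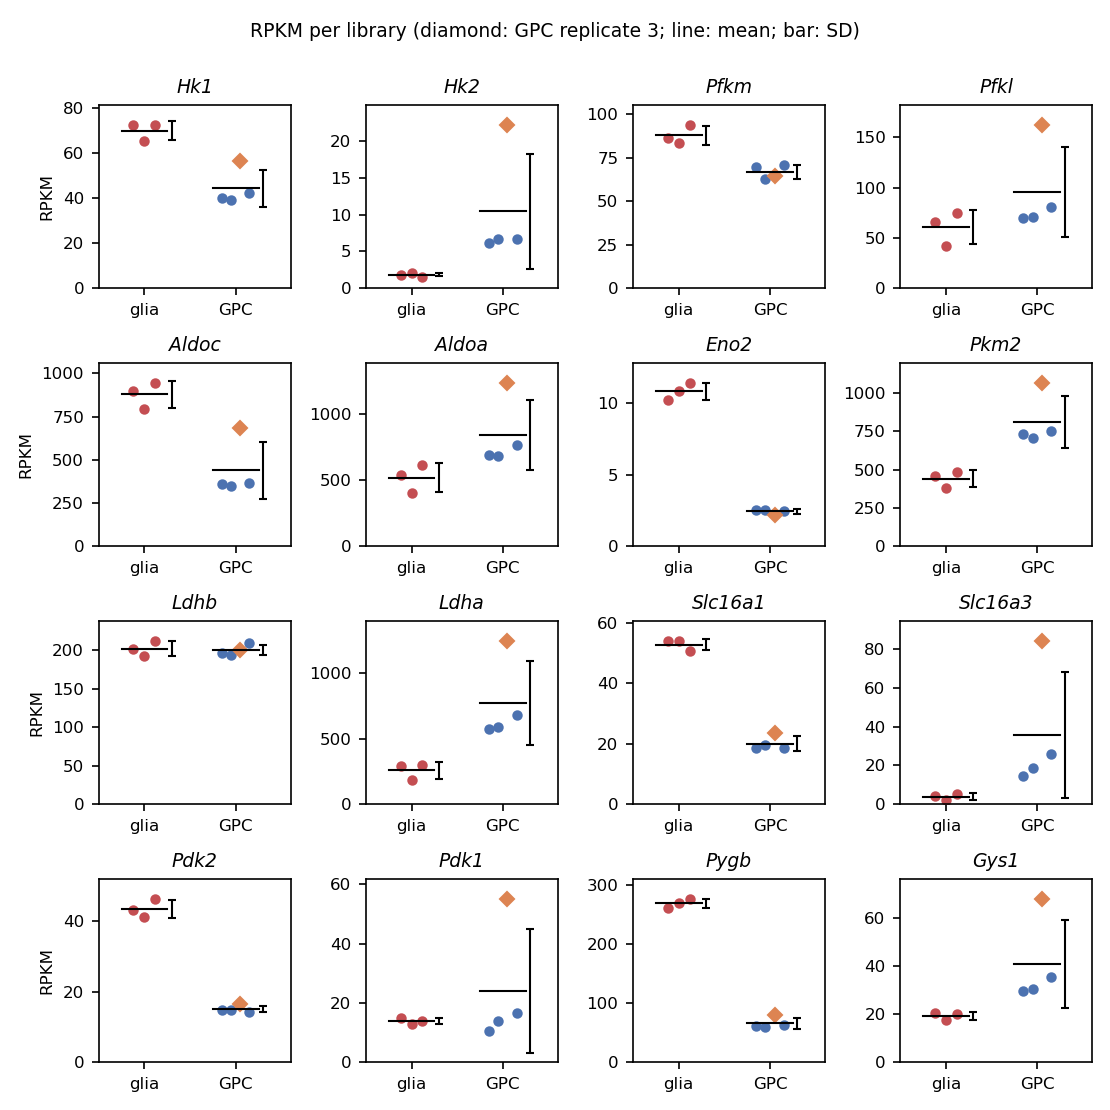
RPKM per library (vertical axes from 0) of 16 members in glia (left) and GPC (right); points are libraries, the diamond is GPC replicate 3, lines are means and bars SD. Ldhb overlapped between the groups, Hk2 and Ldha were lower in every glia library, and GPC replicate 3 was the highest library of all for Hk2, Pfkl, Aldoa, Pkm2, Ldha, Slc16a3, Pdk1 and Gys1.

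Among the genes that control the fate of pyruvate, the kinases Pdk2 and Pdk4, which switch off pyruvate dehydrogenase, rose, its catalytic subunit gene Pdha1 fell and the kinase Pdk1 was not called. Pdk2, the pyruvate dehydrogenase kinase found in most tissues, gave 42.9, 41.1 and 46.2 RPKM in glia, against 14.8, 14.9, 16.4 and 14.4 RPKM in GPC, a log2 change of 1.49 ± 0.078 (edgeR adjusted p = 9.14e-08). Pdk4, a kinase raised on fasting and lipid use in muscle and liver, rose on few reads, 71, 24 and 66 in glia and 7, 11, 12 and 8 in GPC, with 1.21, 1.01 and 1.11 RPKM in glia, against 0.161, 0.237, 0.158 and 0.182 RPKM in GPC, a log2 change of 2.58 ± 0.22 (edgeR adjusted p = 2.9e-06). Both were higher in every glia library. Pdha1, the E1 alpha subunit of the complex, gave 91.4, 91.3 and 85.9 RPKM in glia, against 149, 155, 126 and 147 RPKM in GPC, a log2 change of -0.72 ± 0.078 (edgeR adjusted p = 1.65e-05), with no overlap. Pdk1, a kinase known as a HIF target, gave 15.04, 13.05 and 14.1 RPKM in glia, against 10.7, 13.8, 54.98 and 16.6 RPKM in GPC. GPC replicate 3 was more than 3 times any other library for this gene, the groups overlapped, and the change of -0.82 ± 0.58 was not called (adjusted p = 0.242). It was 0.017 ± 0.13 without that library (adjusted p = 0.909). Pcx, pyruvate carboxylase, the enzyme by which astrocytes refill the citric acid cycle, gave 11.4, 10.4 and 12.5 RPKM in glia, against 6.65, 5.72, 10.99 and 6.66 RPKM in GPC, with overlapping groups. Its change of 0.57 ± 0.21 (edgeR adjusted p = 0.0412) passed narrowly. That call ended without any one of glia replicates 1, 2 and 3 (adjusted p of 0.0913, 0.0704 and 0.138) or of GPC replicates 1, 2 and 4 (0.091, 0.0798 and 0.0904), and without GPC replicate 3 the change was 0.83 ± 0.092 (adjusted p = 3.98e-06).

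Of 11 further genes of pyruvate entry into mitochondria, 2 rose and 6 fell (35.2% of all genes tested rose and 35.2% fell), with a median log2 change of -0.32. Pdp1, the phosphatase that switches pyruvate dehydrogenase back on, rose by 1.81 ± 0.13 (edgeR adjusted p = 7.27e-07). Pdk3, the fourth pyruvate dehydrogenase kinase, named after its values were seen, fell without overlap: 12.9, 14.2 and 12.2 RPKM in glia, against 19.3, 20.2, 27.2 and 20.3 RPKM in GPC, a log2 change of -0.78 ± 0.13 (edgeR adjusted p = 0.000372). Cs, citrate synthase, changed by -0.90 ± 0.095 (edgeR adjusted p = 1.32e-05), and Brp44, now called Mpc2, a subunit of the mitochondrial pyruvate carrier, rose by 0.79 ± 0.086 (edgeR adjusted p = 1.72e-05).

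Of the members that handle glycogen, Pygb and Pygm rose, Gys1 fell and Pgm2 was not called. Pygb, the brain glycogen phosphorylase that releases glucose from glycogen, gave 262, 269.8 and 277 RPKM in glia, against 62.5, 59.9, 80.6 and 63.1 RPKM in GPC, a log2 change of 1.99 ± 0.10 (edgeR adjusted p = 9.26e-08). Glia held about 4 times the GPC level, with no overlap. Pygm, the muscle phosphorylase that astrocytes also carry, stayed below 1.5 RPKM, with 1.25, 0.793 and 1.41 RPKM in glia, against 0.795, 0.756, 0.298 and 0.476 RPKM in GPC, and its groups overlapped. Its change was 1.08 ± 0.32 (edgeR adjusted p = 0.0128), and the call ended without glia replicate 3 (0.91, adjusted p = 0.0691). Gys1, the glycogen synthase outside the liver, gave 20.4, 17.5 and 20.3 RPKM in glia, against 29.7, 30.7, 67.96 and 35.3 RPKM in GPC, a log2 change of -1.11 ± 0.31 (edgeR adjusted p = 0.0144), or -0.73 ± 0.084 (adjusted p = 5.49e-06) without GPC replicate 3. All glia were below all GPC for Gys1, but its call ended without glia replicate 2 (-1.04, adjusted p = 0.0648) and without glia replicate 3 (-1.14, adjusted p = 0.0511). Pgm2, a phosphoglucomutase gene that RefSeq now lists as Pgm1, gave 57.7, 43.7 and 60.6 RPKM in glia, against 45.9, 52.7, 113 and 61.1 RPKM in GPC. Its groups overlapped and its change of -0.37 ± 0.32 was not called (adjusted p = 0.336), and it was 0.0079 ± 0.12 without GPC replicate 3 (adjusted p = 0.956).

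Among 27 tested genes of a further list of glycogen and gluconeogenesis, 11 rose and 8 fell, with a median log2 change of 0.17. Of all genes tested 35.2% rose and 35.2% fell. Without GPC replicate 3, 14 of the list rose and 8 fell (38.1% and 37.7% of all genes), and without glia replicate 2, 5 fell. Gyg, Ugp2, Pygl, Phka1 and Phka2 were named after their values were seen. Gyg, the glycogenin that primes glycogen, changed by 0.73 ± 0.065 (edgeR adjusted p = 3.81e-06) and Ugp2, which makes its UDP-glucose precursor, by 0.67 ± 0.075 (edgeR adjusted p = 2.18e-05). Pygl, the liver phosphorylase, changed by 0.84 ± 0.20 (edgeR adjusted p = 0.00369), and the phosphorylase kinase subunit genes Phka1 and Phka2 by -0.66 ± 0.094 (edgeR adjusted p = 0.000113) and -0.46 ± 0.082 (edgeR adjusted p = 0.000571). Phkg1, the catalytic subunit of phosphorylase kinase in muscle, rose most, by 4.35 ± 0.12 (edgeR adjusted p = 2.24e-09), with a mean of 24.2 RPKM in glia and 1.14 RPKM in GPC. Pgm5, a relative of the phosphoglucomutases, rose by 1.77 ± 0.17 (edgeR adjusted p = 6.16e-06), and Fbp1, the liver fructose bisphosphatase, by 1.63 ± 0.36 (edgeR adjusted p = 0.00222), or by 2.28 ± 0.25 (adjusted p = 4.16e-06) without GPC replicate 3.

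Shares within isozyme pairs put these differences on 1 scale. A share is the percent of the summed RPKM of the named members, other isozymes left out, given per library and without a test. Ldhb made up 41.0%, 51.1% and 41.1% of Ldha and Ldhb in glia, against 25.5%, 24.7%, 13.8% and 23.4% in GPC. Aldoc made up 62.3%, 66.5% and 60.5% of Aldoa and Aldoc in glia, against 34.1%, 33.6%, 35.6% and 32.4% in GPC. Slc16a3 made up 7.56%, 3.66% and 9.87% of Slc16a1 and Slc16a3 in glia, against 44.2%, 49.0%, 78.1% and 58.2% in GPC. GPC replicate 3 was the GPC library farthest from the glia in the lactate dehydrogenase and transporter shares and the one nearest to them in the aldolase share.

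Hk2 was 2.50%, 3.00% and 2.13% of Hk1 and Hk2 in glia, against 13.3%, 14.7%, 28.3% and 13.7% in GPC. Pfkfb2 was 37.8%, 37.5% and 37.5% of Pfkfb2 and Pfkfb3 in glia, against 16.4%, 16.0%, 13.8% and 15.1% in GPC. Pfkm was 55.6%, 64.5% and 54.6% of the 3 phosphofructokinases in glia, against 49.1%, 46.1%, 28.1% and 46.2% in GPC. Pdk2 was 72.5%, 74.5% and 75.2% of Pdk1, Pdk2 and Pdk4 in glia, against 57.6%, 51.5%, 22.9% and 46.1% in GPC. With Pdk3, which is no member, added to the sum, a choice made after seeing the data, it was 59.5%, 59.3% and 62.8% in glia, against 32.8%, 30.3%, 16.6% and 27.9% in GPC. Neither these shares nor the one with Pdk3 overlapped between the groups. Nor did that of Slc2a3 in Slc2a1 and Slc2a3, by a small margin, at 19.4%, 20.4% and 18.1% in glia and 20.5%, 26.0%, 27.1% and 29.1% in GPC. Lack of overlap was common in single genes, where 36.9% of those tested had all glia above all GPC and 32.1% all glia below.

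**Figure D3:**
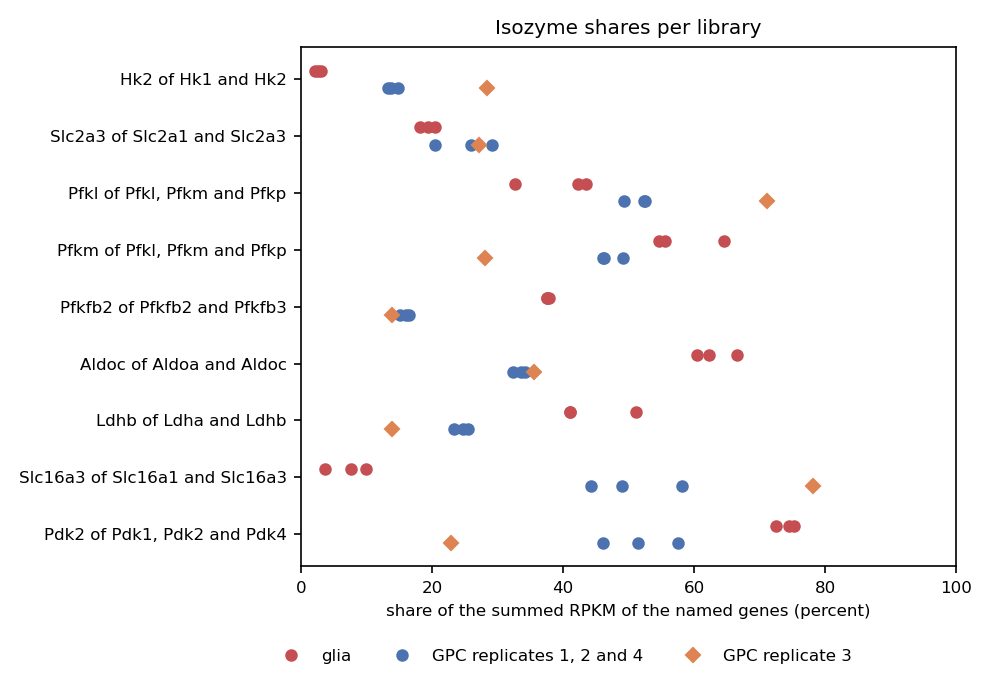
Share of 1 isozyme in the summed RPKM of its pair or trio (horizontal axis, percent), 1 point per library. In all 9 rows the glia do not overlap with the GPC. Of single genes tested, 36.9% had all glia above all GPC and 32.1% all glia below. The Pfkl and Pfkm rows are shares of the same trio and not separate results. GPC replicate 3 lies beyond the other GPC libraries for Hk2, the phosphofructokinases, Pfkfb2, Aldoc, Ldhb, Slc16a3 and Pdk2.

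GPC replicate 3 carried more RNA of many of these genes than the other GPC libraries. Reads of the 33 genes made up 0.690%, 0.608% and 0.731% of reads in genes in glia, and 0.641%, 0.650%, 1.09% and 0.714% in GPC. In 22 of the 32 tested members GPC replicate 3 was the highest GPC library (68.8%, where 34.5% of all genes tested had it highest), and in 15 it was above all 6 other libraries (46.9%, against 13.4% of all genes). In 10 members it was at least 2-fold above the mean of the other 3 GPC libraries (31.2%, against 2.92% of all genes). These were Slc16a3 (4.25-fold), Pdk1 (4.01-fold), Hk2 (3.42-fold), Slc2a3 (2.89-fold), Slc2a1 (2.65-fold), Pfkl (2.20-fold), Gys1 (2.13-fold), Pgm2 (2.12-fold), Pgk1 (2.10-fold) and Ldha (2.03-fold). Ldhb, Pfkm, Eno2, Pdha1 and Pgam1 were not among them, at 1.001, 0.949, 0.866, 0.835 and 1.07 times the mean of the other GPC.

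Many other genes known as HIF targets were also higher in GPC replicate 3, in a list chosen with earlier results of these data known. Of 25 such genes outside the pathway, it was the highest GPC library in 23, where 34.5% of all genes tested had it highest. It was above all 6 other libraries in 20 (13.4% of all genes were), and 15 were at least 2-fold above the mean of the other GPC (2.92% of all genes were). The median ratio of the 25 genes was 2.12, beside 1.36 for the members, 1.10 for the further glycogen list, 0.905 for the further glycolysis list and 0.987 for all genes tested. The largest ratios were those of the prolyl hydroxylase subunit P4ha2 (5.90), of Ankrd37 (5.20) and of Ndrg1 (4.08), named after their values were seen. Vegfa, the vascular growth factor, had a ratio of 3.96 and was likewise named after its value was seen. Cell cycle genes were lower in GPC replicate 3, with a median ratio of 0.837. It was the lowest GPC library for 16 of these 20 genes, and for 5346 of all 13588 genes tested. This library was also the deepest. The labels give no difference in its handling, and the cause was not tested.

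In glia against GPC, 4 of the 25 HIF target genes rose and 11 fell, where 35.2% of all genes tested rose and 35.2% fell. Their median log2 change was -0.68, or -0.29 without GPC replicate 3. Without that library 24 of them were tested, of which 6 rose and 12 fell (38.1% and 37.7% of all genes). The number that fell was 6 without glia replicate 1, 6 without glia replicate 2 and 4 without glia replicate 3. Lox, a matrix cross-linking enzyme, rose by 5.82 ± 0.39 (edgeR adjusted p = 6.01e-06), while the carbonic anhydrases Car9 and Car12, both under 1 RPKM on average in each group, changed by -3.85 ± 0.70 (edgeR adjusted p = 0.000663) and -3.66 ± 0.56 (edgeR adjusted p = 0.000196). Both rest on few reads. Car9 had 0, 1 and 1 reads in glia and 5, 12, 18 and 14 in GPC, and was not tested without GPC replicate 3. Car12 had 3, 2 and 3 reads in glia and 21, 26, 95 and 22 in GPC.

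**Figure D4:**
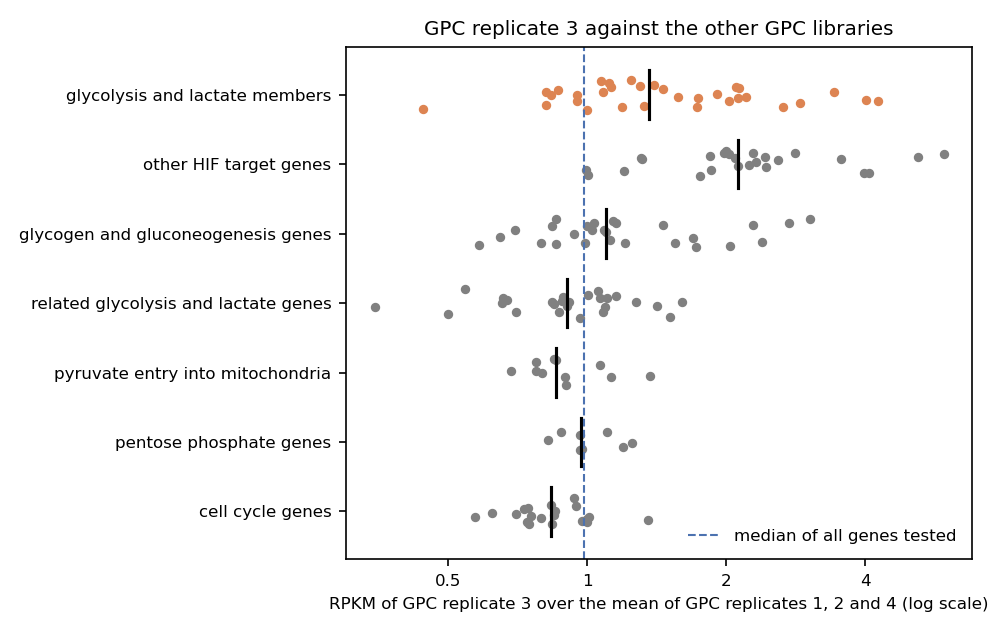
RPKM of GPC replicate 3 over the mean of GPC replicates 1, 2 and 4 (horizontal axis, log scale), 1 point per tested gene in 7 gene lists; black lines are medians and the dashed line is the median of all genes tested, 0.987. The glycolysis and lactate members have a median of 1.36 and the other HIF target genes of 2.12, and the cell cycle genes of 0.837.

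Promoter windows of the members that differed most in GPC replicate 3 are shown because HIF is known to bind the letters ACGTG and GCGTG. Windows run from 250 bases before to 50 bases after the transcription start in RefSeq (GRCm38.p6), so the start is base 251. They read 5′ to 3′ on the strand of the gene, and capitals mark each ACGTG or GCGTG on either strand. A CACGTG, which holds the motif on both strands, counts as 2 matches. Of the 33 members 32 had an entry, and Slc2a3 had none. Each of the 4 windows below holds 2 matches, and a second Pdk1 window in the table, not printed, holds 0. They lie at chr11:120948817-120949116 on the plus strand for Slc16a3, chr2:71872974-71873273 on the plus strand for Pdk1, chr6:82774405-82774704 on the minus strand for Hk2 and chr4:119108495-119108794 on the plus strand for Slc2a1.
Slc16a3: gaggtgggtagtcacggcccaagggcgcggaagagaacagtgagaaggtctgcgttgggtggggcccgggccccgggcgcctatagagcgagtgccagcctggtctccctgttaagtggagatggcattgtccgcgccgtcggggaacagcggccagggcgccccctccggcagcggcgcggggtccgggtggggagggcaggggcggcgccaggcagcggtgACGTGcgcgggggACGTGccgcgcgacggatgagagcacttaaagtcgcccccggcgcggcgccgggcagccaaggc
Pdk1: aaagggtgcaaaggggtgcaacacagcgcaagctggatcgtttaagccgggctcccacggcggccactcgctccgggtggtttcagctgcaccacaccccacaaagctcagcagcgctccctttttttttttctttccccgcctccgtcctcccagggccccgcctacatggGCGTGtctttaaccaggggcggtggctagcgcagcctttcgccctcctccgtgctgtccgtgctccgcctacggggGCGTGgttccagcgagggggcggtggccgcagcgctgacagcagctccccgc
Hk2: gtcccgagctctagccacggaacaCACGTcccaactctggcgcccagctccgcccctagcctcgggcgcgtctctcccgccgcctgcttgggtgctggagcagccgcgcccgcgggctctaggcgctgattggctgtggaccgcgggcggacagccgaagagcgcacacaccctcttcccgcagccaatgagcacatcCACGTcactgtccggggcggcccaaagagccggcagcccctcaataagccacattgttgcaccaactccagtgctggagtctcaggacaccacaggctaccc
Slc2a1: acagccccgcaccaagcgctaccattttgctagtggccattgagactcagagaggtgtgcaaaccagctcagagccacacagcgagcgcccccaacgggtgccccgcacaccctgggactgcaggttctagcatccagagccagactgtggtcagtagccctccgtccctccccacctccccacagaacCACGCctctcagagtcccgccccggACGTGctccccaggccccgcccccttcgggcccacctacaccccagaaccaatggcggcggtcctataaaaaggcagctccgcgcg
The motif is common. It was found in 9 of 11 windows (81.8%) of the 9 members that were at least 2-fold higher in GPC replicate 3 and had an entry, in 29 of 38 windows (76.3%) of the other members, and in 61.6% of 13742 windows of the genes tested. Windows with 3 or more matches were 9.09% of those of the members at least 2-fold higher, 28.9% of those of the other members and 15.7% of those of the genes tested. A match is a description of the letters and not of binding.

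The glia libraries differed among themselves too. Glia replicate 2, the shallowest library, was the lowest of the 3 glia in 21 of 32 members (65.6%, against 39.0% of all genes tested). Among the 14 members that fell it was lowest in 10, against 41.8% of all genes that fell. It stood at 0.411 times the mean of the other glia for Slc16a3, 0.602 for Pfkl, 0.621 for Ldha, 0.634 for Tpi1, 0.690 for Aldoa and 0.715 for Gpi1. In 6 members it was the highest glia library, with ratios of 1.26 for Pfkfb3, 1.25 for Pfkfb2, 1.18 for Slc2a3, 1.17 for Hk2, 1.06 for Pfkp and 1.06 for Slc2a1. The cause of this spread was not tested.

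In a list of 35 further transporters, isozymes and regulators of glycolysis and lactate handling 27 were tested. Of these 9 rose and 11 fell (35.2% of all genes tested rose and 35.2% fell), with a median log2 change of 0.0082. Without glia replicate 3, 7 fell. Hkdc1, a hexokinase-like gene, rose by 4.65 ± 0.58 (edgeR adjusted p = 4.85e-05) but stayed at a mean of 0.422 RPKM in glia and 0.0167 RPKM in GPC. Slc2a9, which carries urate and hexoses, changed by -2.46 ± 0.19 (edgeR adjusted p = 1.32e-06). Pfkfb1, the liver isozyme of the bifunctional enzyme, changed by -1.44 ± 0.32 (edgeR adjusted p = 0.00248).

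Binding of the SOX factors in GPC was recorded near few of these genes. The authors assigned SOX9 peaks to 4 of 33 members (12.1%, against 11.6% of all genes tested) and SOX3 peaks to 3 (9.09%, against 5.81%). Within 100 kb of the start, 2 members had a SOX9 peak (6.06%, against 8.70%) and 3 a SOX3 peak (9.09%, against 4.09%). Hk2 had both. Its SOX9 peak lay over the promoter at chr6:82724259-82724859 (mm9), centred at -111 bases from the transcription start by the authors' distance, and spanned -411 to 189. The Hk2 window printed above comes from another build, and holds 1 match to the SOX core letters NCAANG, each N being A or T, on either strand, at base 250, as 32.4% of the windows of tested genes hold at least 1. A SOX3 peak lay at -25141 bases from the Hk2 start, at chr6:82749523-82749655 (mm9). Pfkfb3 had 3 SOX3 peaks, at 7071, 37133 and 110197 bases after its start. The farthest overlapped the SOX9 peak assigned to Pfkfb3 at 110164 bases, chr2:11313230-11313830 (mm9). Pdk4 had a SOX3 peak at -72986 bases from its start, Eno1 a SOX9 peak at -9924 and Pfkp a SOX9 peak at -770826. No peak of these overlapped an NFIA peak. The 3 members with a SOX3 peak comprised 1 that rose, Pdk4, and 2 that fell, Hk2 and Pfkfb3.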

How the data were processed

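Raw RNA-seq counts per gene were deposited by the authors, with RPKM per gene that the authors scaled by gene model length and by the normalization reads of each library, per the file headers. Peak positions were deposited by the authors as 1 list per factor. The submitters' processing notes name MACS, MACS2 and the build mm9; neither aligner nor read counter is given in the sources used here, nor whether strand was used. The 2 input and 3 H3K27Ac samples were not analysed here.

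Counts of 3 glia and 4 GPC libraries were fitted in R 4.3.3 with edgeR 4.0.16 (TMM, filterByExpr, robust glmQLFit, glmQLFTest), with Benjamini-Hochberg adjustment over 13588 genes. The SE is the log2 change over the square root of F. The procedure was tested on simulated data with 1 spread for all genes and no outlying library, so that test does not cover a library like GPC replicate 3. The members and lists were chosen with earlier results of these data known, and no list was tested as a set. Named genes are all members and at most 3 called genes of each further list by size of change, unless the text says otherwise. Alternatives were DESeq2 1.42.0, upper quartile scaling, other count filters, a replicate block and leaving out each library. No replicate pair agreed within counting error (chi-square of 2.05 to 29.9 per gene), so all libraries were kept as separate.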

Additional observations from a re-analysis of the deposited data

Results flagged for a closer look

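In 12 of the 33 genes 1 GPC library lay far from the other 3, and in all 12 it was GPC replicate 3, as the highest. The measure is the gap to the nearest library over the whole range of the 4, set against Dixon's 95% critical value for 4 libraries, which chance exceeds in about 1 of 20 groups. How many of all genes tested exceed that value was not counted. Over all genes GPC replicate 3 also differed from the other GPC libraries, with a chi-square of 25.8 to 29.9 per gene, against 2.05 to 3.59 among the others. The 12 can therefore not be called particular to these genes. The gap was 0.956 for Slc2a1, 0.962 for Hk2, 0.888 for Pfkl, 0.854 for Aldoa, 0.941 for Aldoc, 0.888 for Pgk1, 0.873 for Pkm2, 0.837 for Ldha, 0.839 for Slc16a3, 0.867 for Pdk1, 0.843 for Pygb and 0.853 for Gys1. Aldoc and Pygb are the 2 of these genes that rose in glia, and for both GPC replicate 3 was the GPC library nearest to the glia; in the other 10 it was above all 6 other libraries. The RPKM behind these gaps stand in the report, and the cause was not tested.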

How the results depend on the processing

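Counts of members that rose and fell were within 1.5 times those reported under all alternatives, at 10 to 12 and 11 to 15 when each library was left out. Counts over all genes were 4362 to 5159 rising and 4150 to 5114 falling. Ldhb, never called, changed sign with upper quartile scaling (0.030), at least 50 counts in 3 libraries (0.023) and without glia replicate 2 (0.020), and Pdk1 (0.017) and Pgm2 (0.0079) did so without GPC replicate 3. With each library left out, the log2 change ran over -0.052 to 0.020 for Ldhb, -1.06 to 0.017 for Pdk1 and -0.52 to 0.0079 for Pgm2. The HIF target genes that fell, 11 as reported, were 6 without a filter on low counts, 6 with a replicate block and 4 to 14 with each library left out. Leaving out each library gave 7 to 10 falling genes of the further glycolysis list, 5 to 8 of the further glycogen list and 0 to 2 neuronal markers, and a filter of 50 counts left 0 falling among microglia and endothelium markers. In raw counts the Pfkfb2 share was 23.5 points higher in glia, against 22.3 in RPKM. Within 100 kb, 2 members had a SOX9 peak (6.06%, against 8.70% of genes tested) and 3 a SOX3 peak (9.09%, against 4.09%). The cause was not tested.

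The libraries share replicate numbers. Deviations of same-numbered glia and GPC libraries correlated at -0.0202, 0.138 and 0.0684 for numbers 1 to 3, and those of differently numbered ones at -0.159 to 0.0943. The value for number 2 was the highest of all, but all were small, so the numbers were not taken as pairs. With the replicate block 11 members rose and 15 fell. Under it Pfkl passed (-0.70, adjusted p = 0.0271) and Pygm did not (1.02, adjusted p = 0.0564). With DESeq2 Slc2a3 passed as well (-1.16, adjusted p = 0.0366). Depth limits the members with few reads, which are Gapdh, Eno1, Pdk4, Pygm and Fbp2.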

Other observations

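Genes of the pentose phosphate pathway, which branches from glycolysis to make NADPH and ribose, were measured as a list. Of 8 tested, 1 rose and 5 fell (35.2% of all genes rose and 35.2% fell), and 4 to 5 fell with each library left out, with a median log2 change of -0.38 over all 7 libraries. Pgls changed by -1.05 ± 0.13 (edgeR adjusted p = 6.56e-05), the transketolase Tkt by -0.69 ± 0.086 (edgeR adjusted p = 4.39e-05) and the phosphogluconate dehydrogenase Pgd by -0.67 ± 0.09 (edgeR adjusted p = 8.19e-05). In GPC replicate 3 the list had a median of 0.968 times the other GPC libraries, and 2 of the 8, Rpia at 1.25 and Rpe at 1.20, were above all 6 other libraries.

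Among 27 regulators of glycolytic genes 7 rose and 10 fell (35.2% of all genes tested rose and 35.2% fell), with a median log2 change of 0.053. Epas1, which encodes HIF-2 alpha, rose by 3.22 ± 0.096 (edgeR adjusted p = 3.65e-09), to a mean of 19.3 RPKM in glia, against 2.03 RPKM in GPC. Txnip, an inhibitor of glucose uptake whose transcript follows glucose supply, rose by 2.52 ± 0.16 (edgeR adjusted p = 1.25e-06). Esrrb, an estrogen-related receptor of pluripotent cells, changed by -3.38 ± 0.24 (edgeR adjusted p = 7.97e-07) at a mean of 0.160 RPKM in glia and 1.64 RPKM in GPC. Hif1a, named after its value was seen, changed by -0.32 ± 0.088 (edgeR adjusted p = 0.00845), and GPC replicate 3 was at 1.01 times the other GPC libraries for it.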
